A study of Homo sapiens with 12 samples.

Results

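Histone genes encode the proteins around which DNA is wound: the core histones H2A, H2B, H3 and H4, and the linker histone H1. The members described here are the protein-coding genes whose older symbols begin with HIST1H, HIST2H, HIST3H or HIST4H, now named H1-, H2AC, H2BC, H3C and H4C. The deposited table held 70 of them among 61044 gene IDs. At least 10 counts summed over all libraries were found for 51 of the 70, among 23672 IDs that reached this total. The other 19 had fewer than 10 counts, and 10 of these were listed at 0 in every library. Of the 51 kept genes, 37 lie in the large cluster on 6p22, 11 on 1q21, 2 on 1q42 and 1 on 12p12. They comprise 2 H1, 16 H2A, 13 H2B, 9 H3 and 11 H4 genes. A filter on low counts passed 32 of the 51 to the tests. The remaining 19 are given by their counts only.

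The RNA came from SCC-15, an established line of human oral squamous cell carcinoma. Its cells received either a control hairpin, NC, or a hairpin directed at FMOD, which encodes the matrix proteoglycan fibromodulin. There were 3 such hairpins (shRNA1, shRNA2 and shRNA3), and cells were harvested after 48 hours. Each of the 4 groups had 3 libraries. How the hairpins were delivered and whether a group was a clone are not given in the sources used here. Nothing in the labels says that libraries of a group came from separate cultures, so p-values measure only the spread between these libraries, which may be technical.

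Levels are CPM, each count as a share of the library's scaled total, with totals scaled by TMM, a method that sets libraries against each other by the bulk of their genes. Library totals lay between 17287017 and 19567289 counts. FMOD itself had 2, 2 and 3 counts in the NC libraries and 0 in each of the 9 shRNA libraries. Because 0 counts in a library allow up to 3, a level of 0.145 to 0.222 CPM, no fold was computed for FMOD. Libraries 1 and 2 of shRNA3 correlated with each other over all tested genes at r = 0.982, and with library 3 of that group at 0.907 and 0.903. They were kept apart from library 3 throughout. Of 10 squamous epithelial markers all were tested, and their summed level lay between 2316 and 3303 CPM in the 12 libraries. Their mean sum was 2754 CPM with NC, 2558 with shRNA1, 2802 with shRNA2, 3215 in shRNA3 libraries 1 and 2 and 2385 in library 3. The keratin gene KRT5, 1 of the 10, was at 964 to 1048 CPM with NC and at 16.5 to 90.2 CPM with the hairpins. Its fall is not shared by the sum, so KRT5 does not stand for the list. Of 4 blood cell markers only CD68 was tested. It made up nearly all of their sum, at 53.8 to 72.0 CPM with NC, 43.8 to 96.3 with shRNA1, 80.1 to 85.7 with shRNA2 and 235, 229 and 109 in the shRNA3 libraries, while PTPRC (at most 0.44 CPM) and CD3E were near 0. The 7 fibroblast markers (4 tested, DCN and COL3A1 near 0) summed to 56.8 to 59.7 CPM with NC, 15.5 to 21 with shRNA1, 44.2 to 48.2 with shRNA2 and 81.1, 86.5 and 32.8 with shRNA3. The 3 endothelial markers, all tested, summed to 17.6 to 23.1 CPM with NC and 3.88 to 13.2 CPM with the hairpins. Their part in the results was not tested. In bulk RNA, fewer cells of a type and less RNA per cell cannot be told apart.

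Most replication-dependent histone mRNAs are made in S phase, when new chromatin is assembled on copied DNA. Instead of a poly(A) tail they end in a short stem-loop, which the protein SLBP binds, and NPAT activates their transcription at the clustered genes. Some histone genes also make longer, polyadenylated mRNAs, which are known from differentiated cells and from tumours. Whether the libraries were selected for poly(A) tails is not given in the sources used here, so the level of histone mRNA relative to other mRNA is not read from these data.

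Stem-loops are shown first because they mark the shared 3′ end of these mRNAs. The histone stem-loop, searched by its consensus of 16 bases, was found in annotated transcripts of 30 of the 51 kept genes and 23 of the 32 tested genes, beside 0.0716% of all 58676 genes in the transcript table. Many histone gene models end at the stop codon, so a missing match says nothing. The 30 genes shared 6 different sequences. The 4 loop bases are in capitals, 5′ to 3′ in the sense of the mRNA.
H2BC21: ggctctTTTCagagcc
H2AC25: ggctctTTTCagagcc
H2AC18: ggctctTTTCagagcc
H2BC5: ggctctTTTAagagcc
H4C14: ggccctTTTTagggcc
The models of H2BC21, H2AC25 and H2AC18 carried the same 16 bases. The annotated transcript of H2BC21 went on for 1729 bases after its stem-loop and that of H2AC18 for 35. Of the 23 tested genes with a match, 18 had a model that ran more than 200 bases past it.

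Promoters are shown for 6 genes whose values lead the results below, among them the neighbours H2BC21 and H2AC20, which are transcribed away from each other. RefSeq promoters on GRCh38.p14 matched 65 of the 70 listed genes and all 32 tested genes. Each sequence gives the 150 bases before the annotated start, 5′ to 3′ on the gene's strand, with motif matches in capitals. The motifs searched, on both strands, were TATAAA (the TATA box), CCAAT, ATTTGCAT (the octamer bound by OCT1) and AAACACA (a box known from H1 promoters).
H2BC12, chr6:27146859-27147008, minus strand: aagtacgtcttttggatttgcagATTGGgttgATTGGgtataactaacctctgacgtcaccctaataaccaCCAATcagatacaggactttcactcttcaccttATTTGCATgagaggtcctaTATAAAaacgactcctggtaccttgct
H2BC11, chr6:27132796-27132945, minus strand: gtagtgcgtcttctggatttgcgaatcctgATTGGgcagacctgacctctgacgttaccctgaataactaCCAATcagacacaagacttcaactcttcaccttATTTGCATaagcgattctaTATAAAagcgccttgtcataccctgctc
H2BC21, chr1:149886683-149886832, minus strand: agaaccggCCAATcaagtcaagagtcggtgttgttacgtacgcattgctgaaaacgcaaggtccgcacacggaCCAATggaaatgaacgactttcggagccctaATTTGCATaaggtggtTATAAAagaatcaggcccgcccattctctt
H2AC20, chr1:149886768-149886917, plus strand: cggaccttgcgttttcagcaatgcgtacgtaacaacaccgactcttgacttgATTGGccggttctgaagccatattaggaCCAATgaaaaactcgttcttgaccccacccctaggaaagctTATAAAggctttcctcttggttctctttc
H1-2, chr6:26056471-26056620, minus strand: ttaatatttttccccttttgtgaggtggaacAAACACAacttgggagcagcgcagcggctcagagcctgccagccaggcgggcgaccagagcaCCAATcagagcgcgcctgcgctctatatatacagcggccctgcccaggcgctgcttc
H2AC18, chr1:149842751-149842900, minus strand: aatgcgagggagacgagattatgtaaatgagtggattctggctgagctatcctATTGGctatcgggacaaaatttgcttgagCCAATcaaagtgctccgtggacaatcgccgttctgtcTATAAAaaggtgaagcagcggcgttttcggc
Within 250 bases before the start, ATTTGCAT was found for 7 of 10 tested H2B and 5 of 8 tested H2A genes, and CCAAT for all 10 and all 8. No tested H4 promoter held ATTTGCAT or CCAAT in these letters. TATAAA was found in 65.6% of the tested members and 11.1% of all 27305 promoters, CCAAT in 78.1% and 33%, ATTTGCAT in 37.5% and 1.66%, and AAACACA in 6.25% and 4.95%. A match describes letters and is not a measured site.

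The summed level of the 51 genes was 83.3, 86.9 and 77.0 CPM in the NC libraries, 82.4 ± 4.98 (SD, n = 3). With shRNA1 it was 484, 404 and 157 CPM, with shRNA2 132, 119 and 113 CPM, and with shRNA3 829 and 902 CPM in libraries 1 and 2 and 288 CPM in library 3. All 9 shRNA libraries thus lay above all 3 NC libraries. The ratio to the NC mean was 1.47 with shRNA2 and 10.5 in shRNA3 libraries 1 and 2, and within shRNA1 it ran from 1.90 in library 3 to 5.88 in library 1. On library totals alone, without TMM, the means were 90.9 CPM with NC and 678 CPM in shRNA3 libraries 1 and 2.

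A few genes carried this sum. H2BC12 held 22.9% of the summed mean CPM, H2AC18 18.2% and H1-2 17.8%, and the 10 leading genes held 90.5%. These are shares of reads, not levels per mRNA. A mean over 10 CPM was reached by 8 genes, and 16 genes stayed below 1 CPM in every library. The leading gene also changed: H1-2 led in all 3 NC libraries, H2BC12 in all shRNA2 libraries and H2AC18 in shRNA3 libraries 1 and 2.

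**Figure D1:**
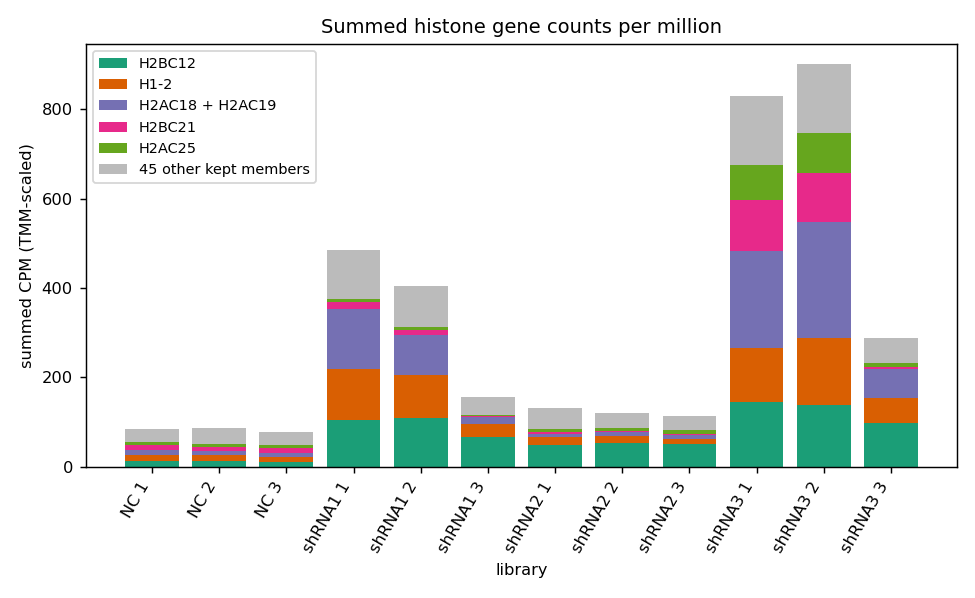
Summed TMM-scaled CPM of the 51 kept histone genes in each of the 12 libraries, stacked by the leading genes, with the other 45 genes in grey. The NC bars lie between 77.0 and 86.9 CPM, and the bars of shRNA1 library 3 (157) and shRNA3 library 3 (288) are lower than those of the other libraries of their groups.

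Against NC, edgeR's quasi-likelihood test with Benjamini-Hochberg adjustment over 17532 genes called 19 of the 32 tested histone genes higher with shRNA1 and 1 lower, at an adjusted p under 0.05. Of all genes tested, 36.3% were called higher and 38% lower in that comparison. With shRNA2, 8 were higher (34.3% of all genes) and 3 lower (37%). In shRNA3 libraries 1 and 2, 24 were higher (32.8%) and 4 lower (41.1%), and in shRNA3 library 3, 7 were higher (29.9%) and 1 lower (31.7%). The share of tested members called higher was 59.4% with shRNA1 and 75% in shRNA3 libraries 1 and 2, above that of all genes. With shRNA2 it was 25%, nearer that of all genes, and is not read as a result about the members. The count in shRNA3 library 3 rests on 1 library and is not read so either. Near-identical copies are counted separately in these shares. With the replicate number as a block, 15 of the 32 members and 5060 of the 17532 genes were higher in shRNA3 library 3, which puts the members' share above that of all genes. The lone library 3 is assumed to vary like the others. The 4 comparisons share the NC libraries and are not independent of each other.

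The median log2 fold change of the 32 genes was 1.60 with shRNA1, 0.32 with shRNA2, 2.98 in shRNA3 libraries 1 and 2 and 1.40 in shRNA3 library 3. Over all genes tested the median was -0.02, -0.05, -0.17 and -0.06. Without TMM, the median of all genes in shRNA3 libraries 1 and 2 was -0.66 and that of the 32 genes 2.49. Of the 19 genes called higher with shRNA1, 14 were called whichever library was left out, against 4 of 8 with shRNA2, 20 of 24 in shRNA3 libraries 1 and 2, and 5 of 7 in shRNA3 library 3. Without shRNA2 library 1 the higher calls with shRNA2 numbered 4. Without shRNA2 library 2 or library 3 the lower calls numbered 1. Without shRNA1 library 3 the higher calls in shRNA3 library 3 rose to 11 and the lower ones to 3, and without NC library 1, shRNA1 library 2 or shRNA2 library 1 the lower ones numbered 2. Without shRNA3 library 1 the lower calls in shRNA3 libraries 1 and 2 numbered 2, and without library 2 they numbered 0. When all 3 shRNA3 libraries were fitted as 1 group, 21 genes were higher (26.4% of all genes) and 2 lower (27.6%).

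**Figure D2:**
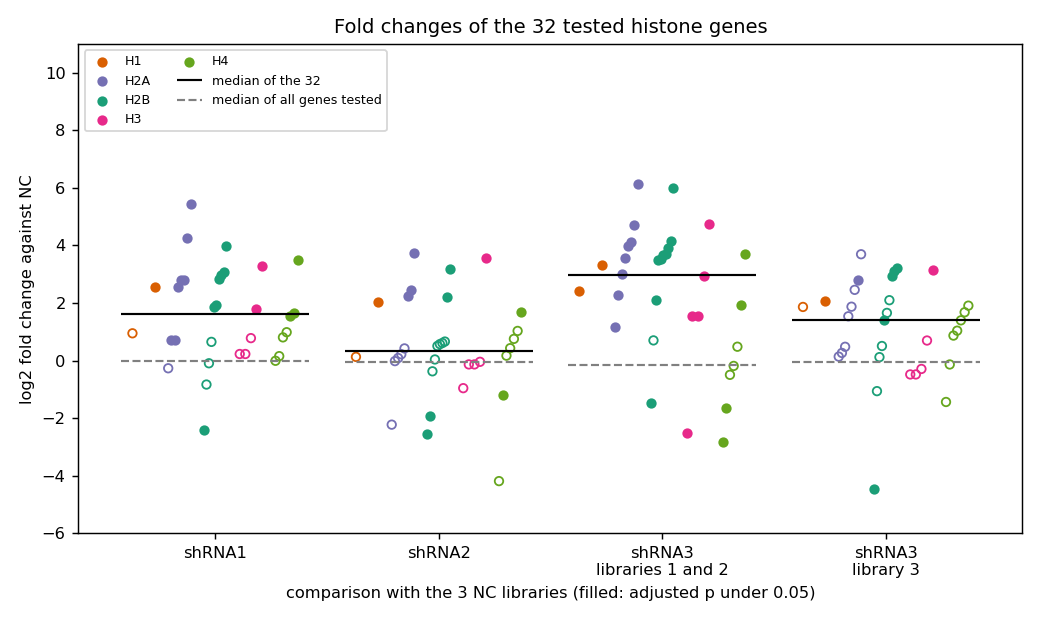
Log2 fold change against NC of the 32 tested histone genes, coloured by family, in the 4 comparisons, with filled points for an adjusted p under 0.05. The black line is their median (1.60, 0.32, 2.98 and 1.40 from left) and the dashed line the median of all 17532 genes tested.

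Genes called higher with both shRNA1 and shRNA2 numbered 7: H2BC11, H2BC12, H2AC7, H2AC17, H2AC20, H3C2 and H4C5. Among all genes 28.3% were higher in both. Without shRNA2 library 1 the number was 4, since the shRNA2 calls of H2AC7 (adjusted p = 0.348), H2AC17 (adjusted p = 0.108) and H4C5 (adjusted p = 0.342) were lost. The shRNA1 call of H4C5 was lost in 6 of 12 fits that left out a library. For H2AC7, 97.6% of its 100-base windows occurred in an overlapping gene on the same strand, and for H2AC17 84.0%. Reads of these genes cannot be assigned with certainty. H2BC11, H2BC12 and H3C2 were higher in all 4 comparisons. Only H2BC8 was called lower in both, where 30.7% of all genes were. Without any model, all 3 shRNA1 libraries lay above all NC libraries for 15 members (35.7% of all genes) and below for 2 (38.6%). For shRNA2 these were 7 (38.2%) and 3 (41.4%). H2BC11, H2BC12, H2AC17, H2AC20 and H3C2 had all 9 shRNA libraries above all 3 NC libraries, which held for 19% of all genes tested, and H2BC8 had all 9 below, which held for 25.8%. H4C12 and H4C15 were called in no comparison with NC as single genes. H4C12 shares all of its 100-base windows with H4C11. Counted as 1 gene, H4C11 and H4C12 had a log2 fold change of 1.75 ± 0.34 (adjusted p = 0.000321) with shRNA1 and 1.77 ± 0.38 (adjusted p = 0.000757) in shRNA3 libraries 1 and 2. Their difference between shRNA1 and shRNA2 was 0.98 ± 0.33 (adjusted p = 0.0270). The fitted 7.68 of H4C11 alone was against a mean of 0 CPM with shRNA2, so it is not a measured fold.

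The linker histone H1 binds DNA where it enters and leaves the nucleosome. Only H1-2 and H1-4 were kept of 6 listed H1 genes. H1-2 lies at chr6:26055787-26056428 (GRCh38, minus strand, 1 exon). Its level was 13.2, 14.7 and 13 CPM with NC, 114, 96.4 and 28.3 CPM with shRNA1, 16.9, 15.1 and 12.8 CPM with shRNA2, and 122, 150 and 56.9 CPM in shRNA3 libraries 1, 2 and 3. The shRNA1 and shRNA3 libraries were all above NC, while shRNA2 overlapped it. The log2 fold change was 2.54 ± 0.44 (SE, adjusted p = 0.000576) with shRNA1 and 3.32 ± 0.47 (adjusted p = 0.000167) in shRNA3 libraries 1 and 2. With shRNA2 it was 0.13 ± 0.45 (adjusted p = 0.809). The difference between shRNA1 and shRNA2 was itself called, at 2.41 ± 0.44 (adjusted p = 0.00231). H1-4 lay between 0.101 and 0.640 CPM with NC and between 0.664 and 2.69 CPM with shRNA2. It was called higher with shRNA2 (adjusted p = 0.00824), but not without shRNA2 library 1 (adjusted p = 0.0807). H1-4 was also called higher in shRNA3 libraries 1 and 2, with a log2 fold change of 2.43, and that call was lost in 1 of 12 fits that left out a library. With shRNA1 it was not called.

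H2A pairs with H2B to form the dimers that flank the H3 and H4 core. All 8 tested H2A genes were called higher in shRNA3 libraries 1 and 2, 7 of them with shRNA1, 3 with shRNA2 and 1 in shRNA3 library 3. Over all genes tested the shares called higher were 32.8%, 36.3%, 34.3% and 29.9% in this order, and the shRNA2 count, 37.5% of the 8, was near its share. Some of these calls were lost in the 12 fits that each left out a library. In shRNA3 libraries 1 and 2, H2AC19 lost its call in 8 fits and H2AC17 in 1. With shRNA1, H2AC11 lost it in 8 and H2AC19 in 4, and with shRNA2, H2AC7 in 5 and H2AC17 in 2. H2AC18 and H2AC19, counted separately among the 8, are near-identical copies on 1q21, at chr1:149842188-149842736 and chr1:149851061-149851624. Reads between them cannot be told apart with certainty: 100% and 96.8% of their 100-base windows occurred in another gene. H2AC19 went from 0.000 to 4.13 CPM within NC. Their summed level was 10.8, 9.25 and 9.22 CPM with NC, 135, 90.4 and 15.5 CPM with shRNA1, 8.19, 8.79 and 7.97 CPM with shRNA2, and 217, 261 and 65.1 CPM in shRNA3 libraries 1, 2 and 3. shRNA2 lay below NC, and every other hairpin library above it. Counted as 1 gene, the pair had a log2 fold change of 3.04 ± 0.67 (adjusted p = 0.00367) with shRNA1, 4.61 ± 0.73 (adjusted p = 0.000576) in shRNA3 libraries 1 and 2 and -0.23 ± 0.72 (adjusted p = 0.787) with shRNA2. As a single gene, H2AC18 had a log2 fold change with shRNA1 of 2.56, and of 1.65 without shRNA1 library 1.

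H2AC25, on 1q42 at chr1:228456979-228457873, showed another pattern. Its level was 5.90, 8.36 and 7.15 CPM with NC, and 2.84 to 8.58 CPM in the 7 libraries of shRNA1, shRNA2 and shRNA3 library 3. It reached 80.3 and 89.9 CPM in shRNA3 libraries 1 and 2, with a log2 fold change of 3.57 ± 0.28 (adjusted p = 1.38e-07). H2AC6 was at 5.98 to 9.25 CPM with NC, 8.71 to 14.6 CPM with shRNA1 and 8.05 to 8.54 CPM with shRNA2. In shRNA3 libraries 1 and 2 it was at 36.1 and 34.4 CPM. H2AC20 was low, at 0.101 to 0.295 CPM with NC, and at 0.546 CPM or more in each of the 9 shRNA libraries, up to 3.64 CPM.

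H2B carried the gene with the most reads. H2BC12, at chr6:27146418-27146798, had 12, 12 and 9.22 CPM with NC. It rose to 104, 108 and 67.0 CPM with shRNA1, 48.8, 53.0 and 50.1 CPM with shRNA2, and 144, 137 and 96.7 CPM in shRNA3 libraries 1, 2 and 3. No shRNA library came near the NC range. Log2 fold changes were 3.07 ± 0.17 (adjusted p = 1.51e-09), 2.19 ± 0.17 (adjusted p = 4.62e-08) and 3.67 ± 0.18 (adjusted p = 5.87e-10) for shRNA1, shRNA2 and shRNA3 libraries 1 and 2. The annotation gives H2BC12 a model of 381 bases, the coding length, while its RefSeq span is 8566 bases, so its level per length was not compared with that of other genes. Its promoter and that of H2BC11 are shown above. H2BC11, 0.202 to 0.344 CPM with NC, had 5.37, 3.39 and 3.35 CPM with shRNA1, 3.16, 2.03 and 1.88 CPM with shRNA2, 17.1 and 16 CPM in shRNA3 libraries 1 and 2 and 2.38 CPM in library 3. Its log2 fold change of 6.01 ± 0.35 (adjusted p = 2.06e-09) in shRNA3 libraries 1 and 2 compared with 3.97 ± 0.35 with shRNA1 (adjusted p = 1.32e-07).

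H2BC21 went different ways. It had 12, 7.43 and 9.17 CPM with NC, 15.3, 9.78 and 1.70 CPM with shRNA1, 3.39, 2.08 and 2.10 CPM with shRNA2, and 113, 110 and 4.56 CPM in shRNA3 libraries 1, 2 and 3. It was called higher in shRNA3 libraries 1 and 2, with a log2 fold change of 3.54 ± 0.59 (adjusted p = 0.000527), and lower with shRNA2, at -1.92 ± 0.65 (adjusted p = 0.0259). The lower call was lost without NC library 1 (adjusted p = 0.0626) and without shRNA2 library 2 or library 3 (adjusted p = 0.0691 and 0.0775). H2BC5 rose with shRNA1 and in shRNA3 libraries 1 and 2. It had 2.61 to 2.69 CPM with NC, 29.7, 22 and 4.69 CPM with shRNA1, 1.55 to 3.63 CPM with shRNA2, and 33.6, 35.6 and 8.34 CPM in the shRNA3 libraries. H2BC18 had 8.08 and 8.23 CPM in shRNA3 libraries 1 and 2 and at most 1.19 CPM in the other 10; it overlaps FCGR1A on the opposite strand. H2BC8 fell: it had 1.06 to 1.48 CPM with NC and 0.0496 to 0.667 CPM in the 9 shRNA libraries, a log2 fold change of -2.40 ± 0.54 (adjusted p = 0.00106) with shRNA1 and -2.55 ± 0.56 (adjusted p = 0.000953) with shRNA2. In shRNA3 libraries 1 and 2, at -1.49 ± 0.61, its call was lost when any 1 NC library or shRNA3 library 2 was left out; without shRNA3 library 2 the values were -0.84 and an adjusted p of 0.303.

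**Figure D3:**
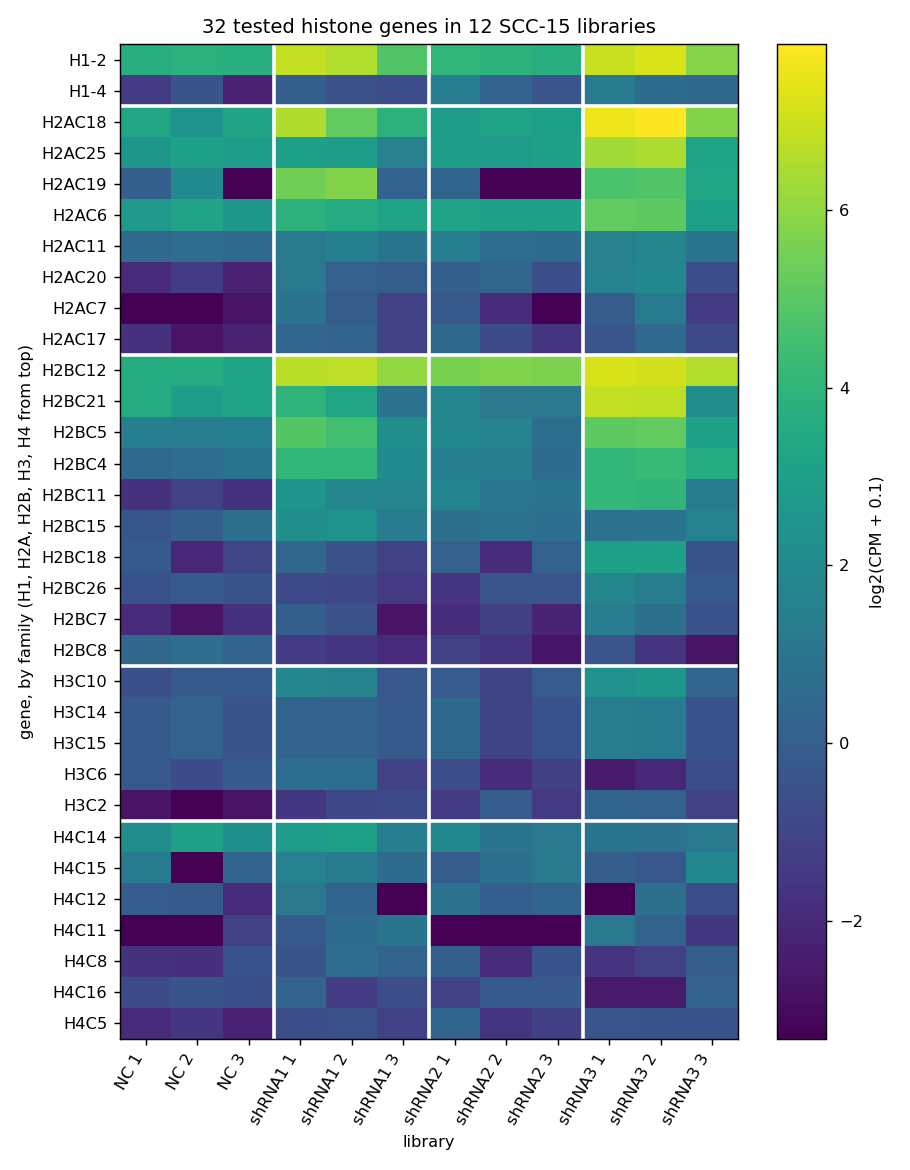
Log2(CPM + 0.1) of the 32 tested histone genes (by family and mean level) in the 12 libraries. shRNA1 library 3 is darker than libraries 1 and 2 of its group for most genes, and shRNA3 library 3 likewise.

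H3 and H4 form the tetramer at the centre of the nucleosome, and they had few reads. The 9 kept H3 genes summed to 3.34 to 4.08 CPM with NC and 13.5 and 12.5 CPM in shRNA3 libraries 1 and 2. The 11 kept H4 genes summed to 8.11 to 10.5 CPM with NC, 15.2, 15.7 and 8.71 CPM with shRNA1, 5.80 to 9.71 CPM with shRNA2, and 7.19, 7.43 and 9.63 CPM with shRNA3. The H4 sum of shRNA3 libraries 1 and 2 thus lay below NC, whereas their sums of the other 4 families lay above it. H3C10 had 0.555 to 0.787 CPM with NC, 3.53, 3.10 and 0.722 CPM with shRNA1, 4.96 and 5.90 CPM in shRNA3 libraries 1 and 2 and 1.14 CPM in library 3. H3C14 and H3C15 had the same value in every library and share all of their 100-base windows, so they are not separate measurements. H4C14 and H4C15 overlap them on the opposite strand, and reads of overlapping genes cannot be told apart where strand was not used. Both H3 genes were called higher in shRNA3 libraries 1 and 2, with a log2 fold change of 1.53 ± 0.44 (adjusted p = 0.00620). H3C2 had at most 1 count in each NC library and 5 to 15 counts in each shRNA library. It was at least 2.55-fold higher with shRNA1 and at least 7.09-fold higher in shRNA3 libraries 1 and 2, against a floor of 3 counts per library.

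H4C14 had 4.54, 8.36 and 4.87 CPM with NC, 6.86, 8.18 and 2.63 CPM with shRNA1, 3.69, 1.86 and 2.16 CPM with shRNA2, and 1.93, 1.82 and 2.18 CPM with shRNA3. It was called lower with shRNA2, at -1.21 ± 0.40 (adjusted p = 0.0149), and in shRNA3 libraries 1 and 2, at -1.66 ± 0.49 (adjusted p = 0.00758). Each call was lost in at least 1 fit that left out a library: with shRNA2 without NC library 2 (adjusted p = 0.0821) or without shRNA2 library 2 or 3, and in shRNA3 without library 2 (adjusted p = 0.0597). The near-identical copy H4C15 moved between 0.000 and 2.37 CPM within NC. With both copies counted as 1 gene the log2 fold change was -0.78 ± 0.30 (adjusted p = 0.0283) with shRNA2 and -1.40 ± 0.36 (adjusted p = 0.00316) in shRNA3 libraries 1 and 2. The 4 genes called lower in shRNA3 libraries 1 and 2 were H4C14, H4C16, H3C6 and H2BC8. Each of these 4 calls was lost in at least 1 fit that left out a library.

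shRNA1 and shRNA2 were also compared directly. Here 12 of the 32 genes were higher with shRNA1, beside 21.3% of all genes, and 7 when the 3 shRNA3 libraries were fitted as 1 group. By edgeR 0 were lower, beside 20% of all genes; 0 were lower at an unadjusted p under 0.05, and 0 by DESeq2. The 12 were H1-2, H2AC18, H2AC19, H2BC4, H2BC5, H2BC11, H2BC12, H2BC15, H3C6, H3C10, H4C11 and H4C14. H2BC5 had a log2 difference of 2.79 ± 0.58 (adjusted p = 0.00397) and H2BC12 of 0.88 ± 0.15 (adjusted p = 0.000552). Of the 12, 8 were called whichever library was left out.

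Within shRNA1, library 3 was the lowest of its group for 28 of the 32 genes, and within shRNA3, library 3 was the lowest for 25. In NC no library was lowest for more than 11. The share over all genes tested is not given here, so these counts are not read as particular to histone genes. H3C14 and H3C15, which had the same values, are both counted. The ratio of the mean of libraries 1 and 2 to library 3 in shRNA1 was 1.59 for H2BC12, 3.72 for H1-2 and 7.36 for H2BC21. In shRNA3 it was 1.45 for H2BC12, 2.39 for H1-2 and 24.4 for H2BC21. Over all genes tested, library 3 of shRNA1 correlated with the other libraries of its group at r = 0.973 and 0.976, and these with each other at 0.985.

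Of the 11 H2A and H2B pairs that face away from each other across 218 to 330 bases, 5 had both genes tested. H2BC21 had 4368 counts over all libraries and its partner H2AC20 had 238. H2BC21 was lower with shRNA2, where H2AC20 was higher, at 2.24 ± 0.56 (adjusted p = 0.00249). H2AC25 had 3681 counts and its partner H2BC26 187, and both were called higher in shRNA3 libraries 1 and 2. H2BC4 and H2AC6 had 1705 and 2693 counts. With shRNA1 the log2 fold change was 2.99 ± 0.48 (adjusted p = 0.000133) for H2BC4 and 0.70 ± 0.20 (adjusted p = 0.00520) for H2AC6. The partner of H2BC12, H2AC12, had 48 counts and was not tested.

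**Figure D4:**
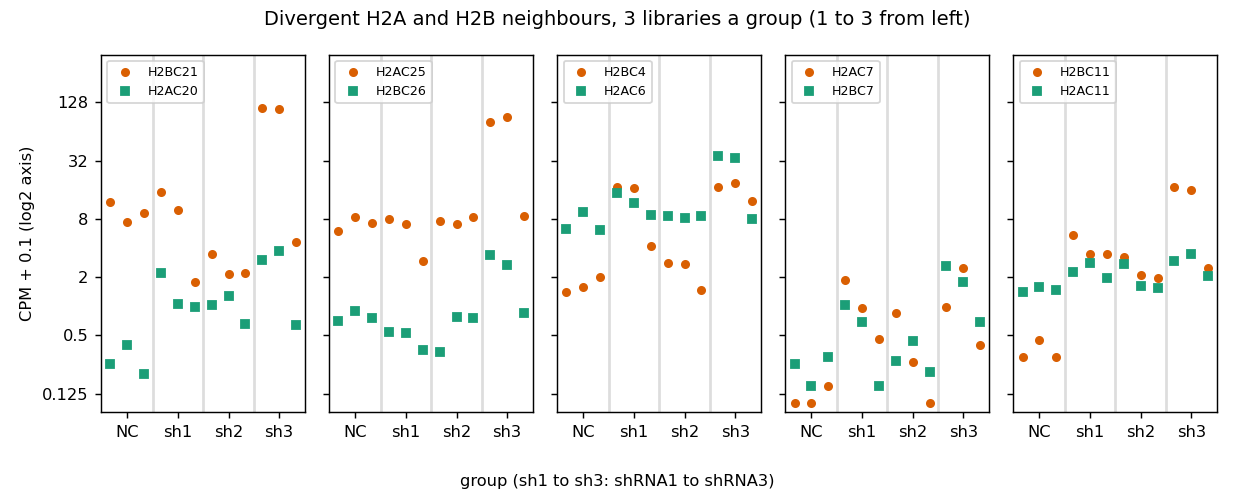
CPM + 0.1 on a log2 axis of the 5 divergent pairs with both genes tested, circles for the gene on the minus strand and squares for its partner, with 3 libraries a group. In shRNA3 libraries 1 and 2 H2BC21 and H2AC25 stand far above their other libraries.

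Genes were also split by annotation, after the annotation had been seen, into those with a long form (a spliced or over 1000-base transcript or RefSeq span) and those without. Among tested genes, 21 had a long form and 11 did not. The median log2 fold change was 0.78 and 2.81 with shRNA1, 0.22 and 1.03 with shRNA2, 1.94 and 3.71 in shRNA3 libraries 1 and 2, and 0.70 and 1.87 in shRNA3 library 3. Genes without a long form thus had the larger median in each comparison, and the difference was not tested. The 11 without one include the near-identical copies H2AC18 and H2AC19, and H4C11 and H4C12, each counted separately. They also include H3C2, with few NC counts, and H2AC7 and H2AC17, whose reads cannot be assigned with certainty. Among the 21 with a long form, the copies H3C14 and H3C15, and H4C14 and H4C15, were likewise counted separately. All 4 genes called lower in shRNA3 libraries 1 and 2 had a long form. The summed level of genes without a long form went from 32.6 CPM with NC to 475 CPM in shRNA3 libraries 1 and 2, and that of genes with a long form from 49.8 to 390 CPM.

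Genes that act with histones were read in the same fit. Their counts below stand beside shares over all genes tested, higher and lower, of 36.3% and 38% with shRNA1, 34.3% and 37% with shRNA2, 32.8% and 41.1% in shRNA3 libraries 1 and 2, and 29.9% and 31.7% in shRNA3 library 3. Of 36 S phase genes, all tested, 30 were called higher and 1 lower with shRNA1, 33 and 0 with shRNA2, 24 and 4 in shRNA3 libraries 1 and 2, and 33 and 0 in shRNA3 library 3. Their summed level was 1714, 1925 and 1708 CPM with NC, 3723, 3898 and 4660 CPM with shRNA1, 5238, 5154 and 5218 CPM with shRNA2, and 4553, 4393 and 5078 CPM with shRNA3. Histone and S phase sums did not share their order: shRNA2 had the higher S phase sums and the lower histone sums, and library 3 of shRNA1 had the highest S phase and lowest histone sum of its group. CCNE2, a cyclin of S phase entry, had a log2 fold change of 4.01 ± 0.16 (adjusted p = 3.03e-11) with shRNA1, 3.19 ± 0.16 (adjusted p = 2.91e-10) with shRNA2 and 1.13 ± 0.19 (adjusted p = 7.45e-05) in shRNA3 libraries 1 and 2. POLA1, of the priming DNA polymerase, had 2.40, 3.06 and 1.69. Their part in the histone result was not tested.

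**Figure D5:**
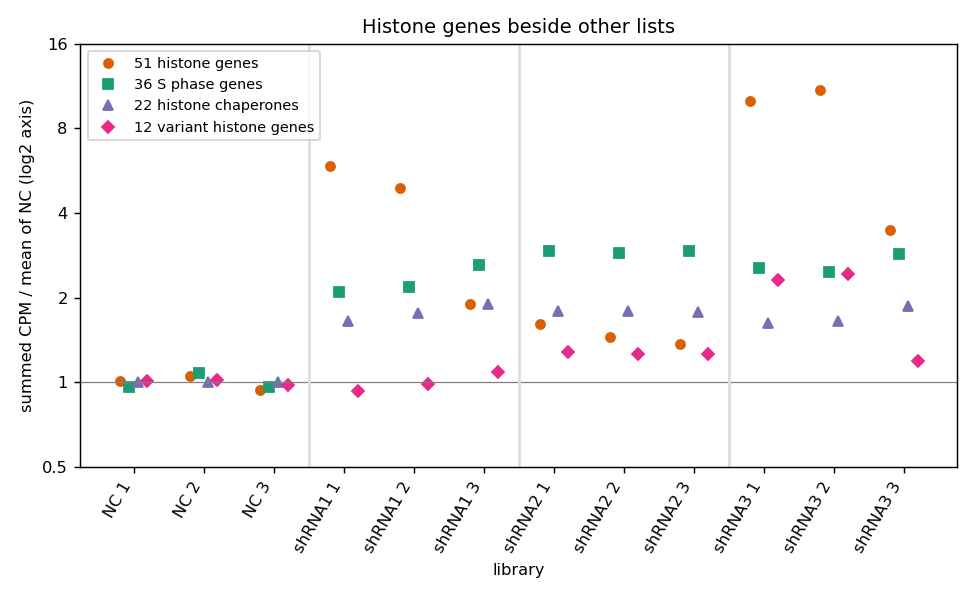
Summed CPM of the 51 histone genes and of 36 S phase, 22 chaperone and 12 variant histone genes in each library, divided by the NC mean, on a log2 axis. Histone genes run from 1.37 in shRNA2 library 3 to 10.9 in shRNA3 library 2, and S phase genes from 2.09 to 2.94 over the shRNA libraries.

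Of 14 genes that transcribe and process histone mRNA, 9 were called higher and 2 lower with shRNA1, 8 and 1 with shRNA2, 4 and 5 in shRNA3 libraries 1 and 2, and 8 and 1 in shRNA3 library 3. All 14 were tested, and the counts in shRNA3 libraries 1 and 2, 28.6% and 35.7%, lay near or below the shares of all genes (32.8% and 41.1%). SLBP, which binds the stem-loop, was at 43.6 to 53.8 CPM with NC and at 113 to 176 CPM in the 9 shRNA libraries. NPAT, the activator, was at 10.6 to 13.8 CPM with NC, 20.2 to 23.5 CPM with shRNA1, 15.8 to 20.7 CPM with shRNA2 and 20.5 CPM in shRNA3 library 3, but at 5.85 and 4.73 CPM in shRNA3 libraries 1 and 2. CASP8AP2, which acts with NPAT, was likewise lowest there, at 8.0 and 6.19 CPM against 18.3 to 23.6 CPM with NC. The log2 fold changes in shRNA3 libraries 1 and 2 were -1.22 ± 0.19 (adjusted p = 3.78e-05) for NPAT and -1.58 ± 0.19 (adjusted p = 2.82e-06) for CASP8AP2. These libraries also had the highest histone sums. The part of NPAT and CASP8AP2 in the histone result was not tested. CPSF2, of the cleavage complex, had 1.11 ± 0.18 (adjusted p = 8.37e-05) with shRNA1 and 1.68 ± 0.18 (adjusted p = 1.96e-06) with shRNA2.

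Histone chaperones escort histones to DNA. Of 22, all tested, 17 were called higher and 1 lower with shRNA1, 18 and 0 with shRNA2, 14 and 4 in shRNA3 libraries 1 and 2, and 15 and 0 in shRNA3 library 3. NAP1L4, a chaperone of H2A and H2B, had a log2 fold change of 1.77 ± 0.08 (adjusted p = 8.46e-11) with shRNA1 and 1.80 ± 0.08 (adjusted p = 7.57e-11) with shRNA2. TONSL, which reads newly made H4, had 2.09 ± 0.14 (adjusted p = 6.61e-09) and 2.19 ± 0.14 (adjusted p = 4.63e-09).

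Most variant histones are made outside S phase as well, from polyadenylated mRNA. Of 12 variant genes 11 were tested: 5 were higher and 4 lower with shRNA1, 6 and 3 with shRNA2, 10 and 1 in shRNA3 libraries 1 and 2, and 5 and 3 in shRNA3 library 3. The shRNA1 counts, 45.5% and 36.4%, were near the shares of all genes (36.3% and 38%). H2AZ1, the H2A variant of promoters, rose from 91.6 to 98.3 CPM with NC to 312 CPM or more in every shRNA library. H2AX, which is phosphorylated at DNA breaks, rose from 42.5 to 52.6 CPM to 140 CPM or more. The replacement H3 gene H3-3B had 362 to 381 CPM with NC, 341 to 415 CPM with shRNA1, shRNA2 and shRNA3 library 3, and 927 and 960 CPM in shRNA3 libraries 1 and 2. H3-3A was at 411 and 407 CPM there and at 168 to 174 CPM with NC.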

How the data were processed

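The authors deposited 1 table of estimated counts per gene for all 12 libraries, 13.8% of them not whole numbers; HISAT2, HTSeq 0.11.2 and GRCh38 are named in the submitters' processing notes. The annotation, strand setting and treatment of reads with several matches are not given in the sources used here. Members and gene lists were chosen with earlier results of these data known.

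Counts were rounded to whole numbers. A symbol was found for 60463 IDs, and 380 IDs are not Ensembl IDs. Gene models came from GENCODE release 29, and promoters from RefSeq. All columns matched a sample title. Genes passing edgeR's filterByExpr with the 4 groups (17532) were fitted with edgeR 4.0.16 (R 4.3.3; TMM factors 0.771 to 1.11; robust quasi-likelihood, two-sided) in 1 model of all 12 libraries with 5 coefficients, shRNA3 library 3 having its own, and 7 residual degrees of freedom. The standard error is the log2 fold change divided by the square root of F. The script was tested on simulated data. Folds against groups at or under 3 counts per library are lower bounds against that floor. The floors cover counting error only, while the standard errors also take in the spread between libraries that the fit estimated.

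Genes named are FMOD, the 3 members of each family with the highest mean CPM, members of at least 1 CPM called in the same direction with shRNA1 and shRNA2, called between them or differing most within shRNA3, fixed genes of other lists and 2 of each list; some of the genes this rule names are not reported here. H2AC6, H2AC7, H2AC11, H2AC12, H2AC17, H2BC4, H2BC8, H2BC9, H2BC15, H2BC26, H3C2, H3C6, H3C8, H4C5, H4C11, H4C16 and the markers KRT5, PTPRC, DCN, CD68, COL1A1, CD3E and COL3A1, and H2AC13, H2AC14, H2BC19P and H2BC20P, were added after their values were seen. Alternatives covered scaling, filters, DESeq2 1.42.0, the groups fitted, a replicate block, GC and length, each library left out, a stricter threshold and, added after seeing the data, near-identical copies merged.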

Additional observations from a re-analysis of the deposited data

How the results depend on the processing

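With all genes of at least 10 counts, 51 members were tested; lower calls with shRNA1 numbered 3, the median log2 fold change was 1.18 with shRNA1, 0.57 with shRNA2 and 2.43 in shRNA3 libraries 1 and 2, and 1 member was lower with shRNA1 than with shRNA2. With a mean of at least 50 counts, 11 members were tested; 8 were higher and 0 lower with shRNA1, 2 higher with shRNA2, and 10 higher and 1 lower in shRNA3 libraries 1 and 2, with medians of 2.46, 0.0014, 3.51, 1.98 (shRNA3 library 3) and 1.82 (shRNA1 against shRNA2). At an adjusted p under 0.01, 5 were higher and 1 lower with shRNA2, 1 lower in shRNA3 libraries 1 and 2, 4 higher in library 3, and 7 higher with shRNA1 than with shRNA2. On library totals alone the median in shRNA3 libraries 1 and 2 was 2.49, lower calls in library 3 numbered 2, and the sums were 90.9 CPM with NC and 678 CPM in shRNA3 libraries 1 and 2. With the 4 labelled groups shRNA3 had 21 higher and 2 lower, a median of 2.59, and values of -0.24 for NPAT and -0.52 for CASP8AP2, and 7 members were higher with shRNA1 than with shRNA2. In shRNA3 library 3, DESeq2 called 2 lower and a fit of only the groups compared called 3. With copies merged the shRNA2 median was 0.51.

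Same-numbered libraries did not deviate together (mean r = -0.0027 over 18 pairs), so the libraries were not treated as paired; whether they share a source is not shown by this. The replicate block raised higher calls in shRNA3 library 3 from 7 to 15 and gave a median of 2.71 in libraries 1 and 2; with GC and length correction as well these were 15 and 2.14. The GC and length correction alone gave 2.34, 1.31 in library 3 and 2 lower calls there. Leaving out each library gave 4 to 8 higher and 1 to 3 lower with shRNA2, 0 to 4 lower in shRNA3 libraries 1 and 2, and 7 to 11 higher, 1 to 3 lower and a median of 1.11 to 1.53 in library 3. Fewer members tested account for the counts at the mean of 50; the cause of the other differences was not tested. Of the single genes' values under alternatives, 2203 kept their side and direction and 111 lost their call, and 2 (NPAT and CASP8AP2 in shRNA3 library 3, with the 4 labelled groups) reversed. Members below 1 CPM rest on a few counts per library, and copies that share sequence limit the H2AC18, H3C14, H4C11 and H4C14 values. Overlapping genes on the same strand that share sequence likewise limit the H2AC7 and H2AC17 values. Other members that share windows with another gene, H2BC12 among them, may be limited too.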

Other observations

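Among the 19 kept members that were not tested, 2 stood out after their values were seen. H3C8 had 8, 12 and 5 counts and H2BC9 6, 3 and 15 counts in the NC libraries, and both had 0 in all 9 shRNA libraries, where 0 allows up to 3 counts. H2AC13 had 0 counts in all NC libraries and 1 to 14 in each shRNA library. H3C8 and H2BC9 were thus kept on their NC counts alone, and H2AC13 on its shRNA counts alone. Among all genes tested, 25.8% had all 9 shRNA libraries below all NC libraries, and 19% had all 9 above. The share of untested genes with such counts is not given here, so these patterns are not read as particular to histone genes.

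The pseudogenes H2BC19P and H2BC20P fell with shRNA1 and shRNA2 and rose in shRNA3 libraries 1 and 2. H2BC20P had 12.4 to 14.5 CPM with NC, 3.97 to 4.97 CPM with shRNA1, 1.58 to 2.42 CPM with shRNA2, 32 and 25.4 CPM in shRNA3 libraries 1 and 2 and 3.72 CPM in library 3.

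Of 20 listed neighbours of the histone genes on 6p22, 14 were tested. Of these, 6 were called higher and 7 lower with shRNA1, 5 and 6 with shRNA2, 3 and 8 in shRNA3 libraries 1 and 2, and 4 and 5 in shRNA3 library 3. Over all genes tested the shares higher and lower were 36.3% and 38%, 34.3% and 37%, 32.8% and 41.1%, and 29.9% and 31.7% in the same order. Their summed level lay between 389 and 482 CPM in all 12 libraries, where the histone sum went from 77.0 to 902 CPM. BTN2A2, a butyrophilin gene, fell from 30.7 to 33.3 CPM with NC to at most 2.48 CPM in every shRNA library. ZNF391, a zinc finger gene, was at 4.04 to 5.93 CPM with NC and at most 0.248 CPM in the shRNA libraries.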
